A study of Mus musculus with 9 samples.

Results

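The semaphorins, plexins, neuropilins and plexin domain containing proteins were taken from the gene names of an FPKM table of whole mouse kidney, as the loci named *Sema3a* to *Sema7a*, *Plxna1* to *Plxnd1*, *Nrp1*, *Nrp2*, *Plxdc1* and *Plxdc2*. The table holds 33 of them among 24138 loci, namely 20 semaphorins, 9 plexins, 2 neuropilins and 2 plexin domain containing proteins. Of the 33, 29 reached a mean of 1 FPKM over the 9 libraries and are called expressed here, and 4 (*Plxna4*, *Plxdc1*, *Sema4f* and *Plxnb3*) did not. FPKM, the fragments per kilobase of transcript scaled to the size of the library, is a level per length and can be compared between genes.

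RNA-seq was performed on whole kidneys at E15.5, with 3 libraries of each of 3 genotypes on the C57Bl6/J background. *Ntn1*fl/fl kidneys (WT) carry 2 floxed *Ntn1* alleles and no Cre, *Foxd1*GC/+;*Ntn1*fl/+ kidneys (HET) carry the *Foxd1* GFP-Cre allele with 1 floxed and 1 intact *Ntn1* allele, and *Foxd1*GC/+;*Ntn1*fl/fl kidneys (MUT) carry the same Cre with 2 floxed alleles. The kidneys came from 3 crosses of *Ntn1*fl/fl with *Foxd1*GC/+;*Ntn1*fl/+ mice, so each embryo carries at least 1 floxed allele. The Cre is inserted into *Foxd1*, so HET and MUT kidneys have 1 disrupted *Foxd1* allele that WT kidneys lack, and it acts in stromal progenitors and their descendants, while the RNA is that of the whole organ. In such bulk RNA, fewer cells of a type and less RNA per cell cannot be told apart.

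Semaphorins are secreted or membrane-bound guidance cues that share a sema domain, and plexins are their main receptors, whose intracellular domain acts on small GTPases and changes the cytoskeleton and adhesion of the receiving cell. Most class 3 semaphorins, which are secreted, need a neuropilin as co-receptor, and neuropilins also bind VEGF. In developing organs the family steers axons, endothelial cells and epithelia, and in the kidney *Sema3a* is known from podocytes and *Plxnd1* from endothelium.

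The 9 libraries were checked before the members were compared. Library sums ran from 453753 to 545598 FPKM, and since FPKM hides the number of reads, the depth stays unknown and counting error cannot be given. The targeted gene *Ntn1* was at 17.8 to 28.9 FPKM in WT, 12.02 to 16.5 in HET and 10.8 to 16.5 in MUT, so every library with Cre lay below every WT library and HET and MUT overlapped. All of the endothelial, stromal, nephron progenitor, ureteric, podocyte, tubule and macrophage markers followed were expressed, and 0 of 5 adrenal and gonad markers were. Library HET-2 stood apart, with 705 FPKM summed over 6 liver markers against 27.2 to 52.2 in the other libraries, and with 54.7 FPKM over the erythroid markers against 17.0 to 26.4. In MUT against HET, the estimates of the members and of the named partners are therefore also given without HET-2. In HET against WT, this is done for the median and for the members with the smallest p or the lowest estimates.

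The expressed members spanned from 1.18 FPKM (*Sema3e*) to 63.7 FPKM (*Plxnb2*), as means over the 9 libraries. Plexin B2, a receptor for class 4 semaphorins, was higher than 89.8% of the expressed loci. The next were *Plxnd1*, the receptor of *Sema3e*, at 51.9 FPKM, the secreted ligand *Sema3c* at 44.8 FPKM and the co-receptor *Nrp1* at 40.5 FPKM. These 4 genes thus include a ligand, a co-receptor and receptors from different plexin classes. Summed over the mean FPKM of the 33 members, semaphorins made up 49.2%, plexins 38.1%, neuropilins 10.8% and plexin domain containing proteins 1.99%. Class 3 semaphorins alone made up 26.1%, or 115 FPKM.

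**Figure D1:**
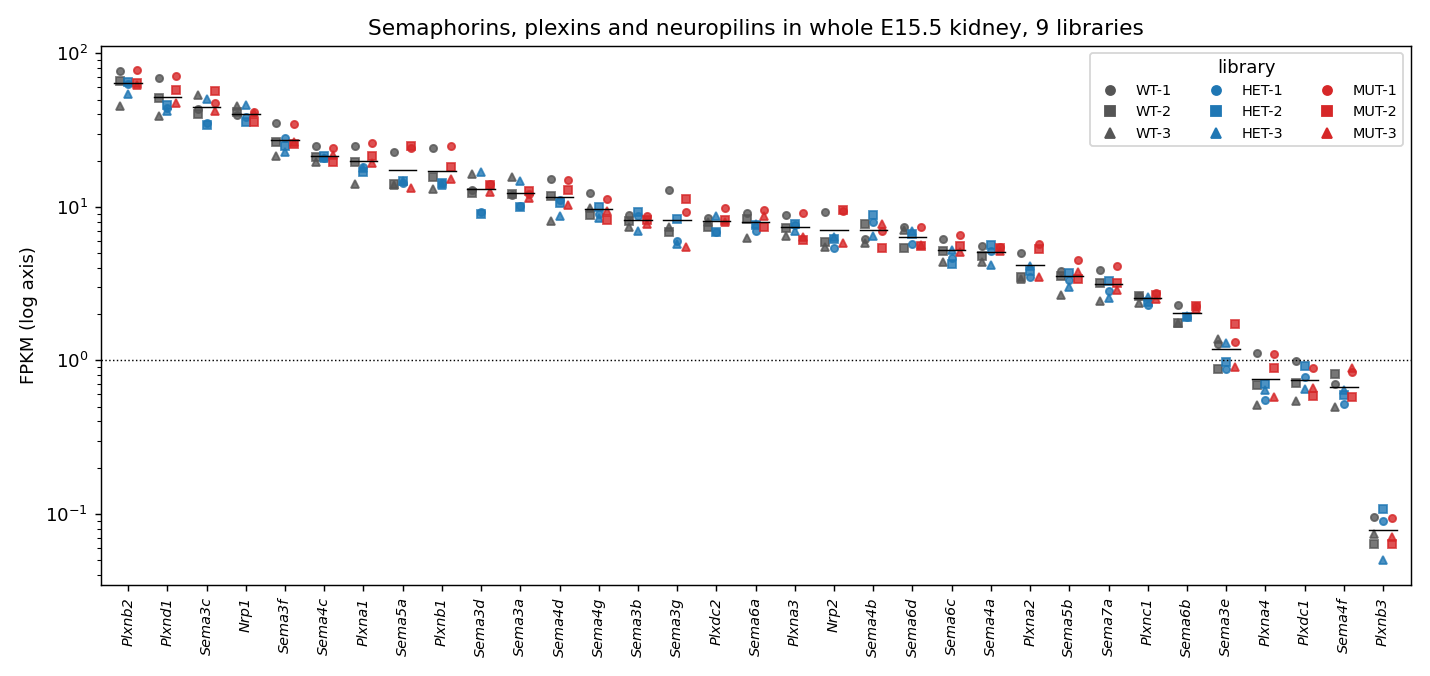
FPKM of the 33 members in each of the 9 libraries on a log axis, with members ordered by their mean (short black line), genotype given by colour, library number by symbol, and the minimum of 1 FPKM as a dotted line. *Plxnb2*, *Plxnd1*, *Sema3c* and *Nrp1* lead with means of 40.5 to 63.7 FPKM, and *Plxnb3* is lowest at 0.0789 FPKM.

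The members just under the minimum were *Plxna4* with a mean of 0.755 FPKM and *Plxdc1* with 0.747 FPKM, followed by *Sema4f* with 0.674 FPKM, while *Sema3e* lay just above it. *Plxna4*, a receptor known from sensory and sympathetic neurons, passed 1 FPKM in WT-1 (1.12) and MUT-1 (1.10) and was at 0.510 to 0.888 FPKM in the other 7 libraries. *Plxnb3* was at 0.0501 to 0.107 FPKM in all 9 libraries. *Sema3e* was itself under 1 FPKM in WT-2, HET-1, HET-2 and MUT-3.

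The sequence just upstream of the transcription start is shown for *Sema3c* and *Sema3e* among the secreted semaphorins and for *Plxnb2* and *Plxnb3* among the B plexins, because each pair holds the highest and the lowest level of its class. The 250 bases before the start come from RefSeq promoters of build GRCm38.p6, at chr5:17574566-17574815 (plus strand) for *Sema3c*, chr5:14025026-14025275 (plus) for *Sema3e*, chr15:89180789-89181038 (minus) for *Plxnb2* and chrX:73756853-73757102 (plus) for *Plxnb3*. They are written 5′ to 3′ on the strand of the gene, and capitals mark GGGCGG, the core of a GC box, or its reverse complement CCGCCC.
Sema3c: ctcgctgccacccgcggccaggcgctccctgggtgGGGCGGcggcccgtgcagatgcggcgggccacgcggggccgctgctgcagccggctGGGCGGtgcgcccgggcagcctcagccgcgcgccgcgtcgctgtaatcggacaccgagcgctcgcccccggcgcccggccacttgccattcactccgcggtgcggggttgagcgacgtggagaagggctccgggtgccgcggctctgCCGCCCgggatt
Sema3e: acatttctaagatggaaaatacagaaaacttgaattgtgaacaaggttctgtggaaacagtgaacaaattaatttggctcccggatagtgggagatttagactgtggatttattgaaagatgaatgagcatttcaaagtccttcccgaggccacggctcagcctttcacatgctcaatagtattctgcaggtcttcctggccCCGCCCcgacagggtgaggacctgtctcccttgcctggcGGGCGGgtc
Plxnb2: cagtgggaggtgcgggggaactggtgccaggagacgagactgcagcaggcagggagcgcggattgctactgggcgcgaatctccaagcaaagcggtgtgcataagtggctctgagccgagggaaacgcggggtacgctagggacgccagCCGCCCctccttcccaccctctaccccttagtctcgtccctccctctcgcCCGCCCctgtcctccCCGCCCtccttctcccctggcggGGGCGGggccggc
Plxnb3: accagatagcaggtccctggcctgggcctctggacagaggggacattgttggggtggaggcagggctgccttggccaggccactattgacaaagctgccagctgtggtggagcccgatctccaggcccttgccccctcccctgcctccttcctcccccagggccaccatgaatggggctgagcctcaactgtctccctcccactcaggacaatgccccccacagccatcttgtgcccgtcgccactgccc

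The windows differ in CpG dinucleotides, with 39 in that of *Sema3c*, 7 in that of *Sema3e*, 20 in that of *Plxnb2* and 3 in that of *Plxnb3*. GGGCGG on either strand, overlapping matches included, was found 3, 2, 4 and 0 times in the same order. RefSeq promoters were matched for 26 of the 33 members, using the start nearest to the 5′ end of the deposited locus where a gene has several. *Sema3b*, *Sema3f*, *Sema6a*, *Plxna1*, *Plxna4*, *Plxdc1* and *Plxdc2* were not matched. For *Sema4d* the nearest start lies 37064 bases inside the deposited locus, so its window may belong to another transcript. The median number of CpG was 16.5 (range 1 to 39) over the 24 expressed members matched and 3.5 over the 2 matched members that were not expressed (*Sema4f* and *Plxnb3*), against 6 over the 32851 promoters of the table. GGGCGG was present in 20 of the 26 windows, against 32.7% of all promoters. TATAAA on either strand was in 0 of 26, against 12.4% of all promoters, and CCAAT on either strand in 4 of 26, against 33.9%. These matches describe the letters of these windows and no factor was measured.

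The study set homozygous against heterozygous kidneys, which both carry the Cre, so that the disrupted *Foxd1* allele is present in both groups compared. Fold changes were taken on log2(FPKM + 1), a scale on which the change of a gene with low FPKM appears too small. None of the 29 expressed members changed between MUT and HET by limma with the Benjamini-Hochberg adjustment over all 12915 expressed loci, and 0 of these loci were called (0%). Adjusted p lay between 0.847 and 0.991 for the members. At an unadjusted p under 0.05, 0 members passed, against 499 of all loci (3.86%). The p-values measure the spread between these 9 kidneys, and an exact two-sided permutation test of 3 libraries against 3 cannot give p under 0.1.

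In estimate, 24 of the 29 members had a log2 fold change above 0 in MUT against HET, where 47.0% of all expressed loci did, and their median was 0.17, against -0.01 over all loci. The libraries of MUT lay above those of HET without overlap for 4 members, *Plxnd1*, *Plxnb1*, *Plxna1* and *Sema6b* (background 4.77%), and below them for 0 members (background 4.79%). Without HET-2, the median was 0.18, again with 24 members above 0, and 6 members lay above HET without overlap, where 7.37% of all loci did with 1 library fewer. Without MUT-1, the median was 0.10 with 22 members above 0, and after correcting every library for transcript length and GC content, an alternative chosen after seeing the data, it was 0.07 with 21 members above 0.

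**Figure D2:**
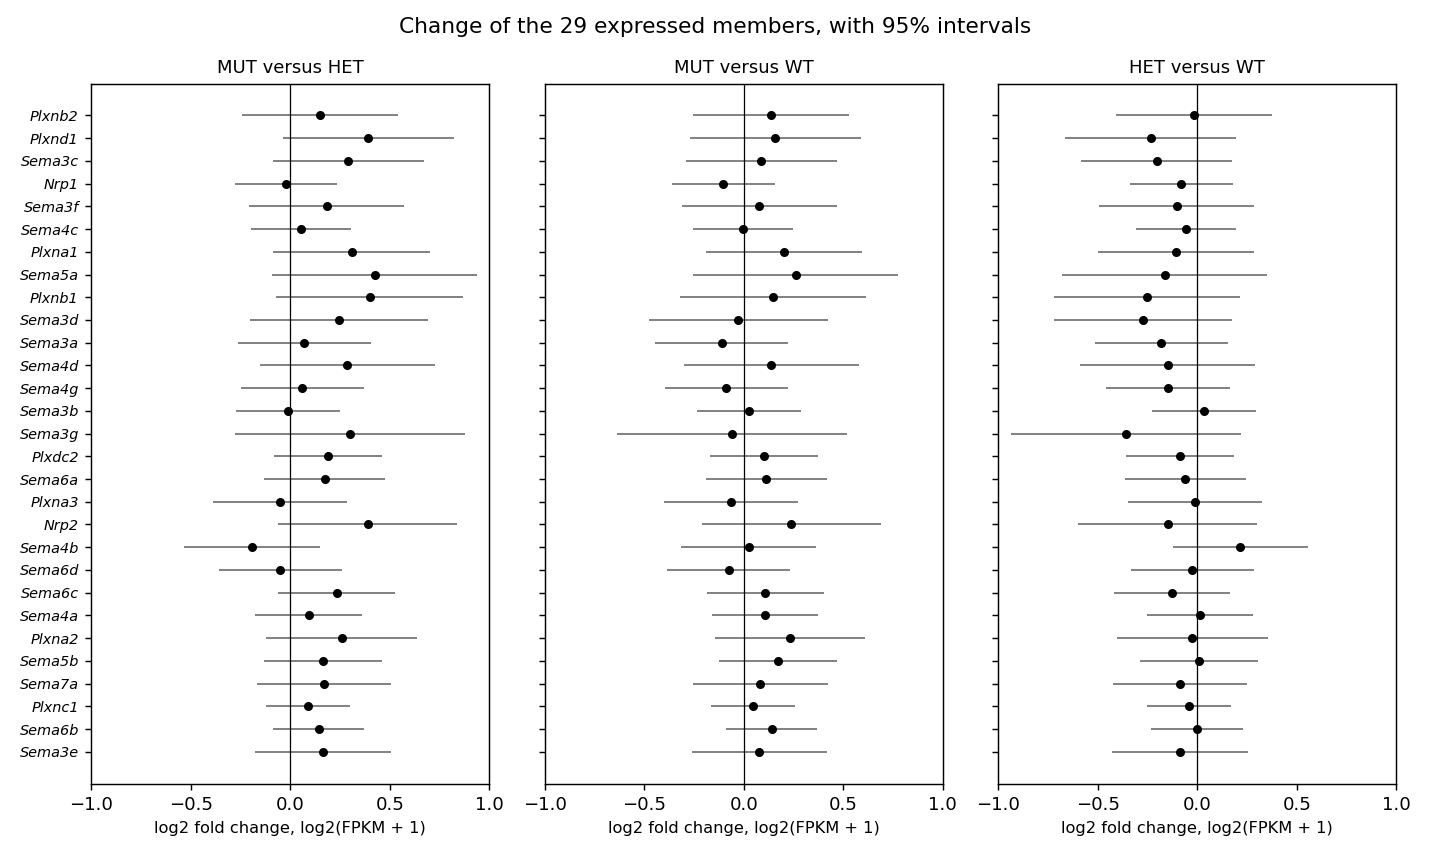
Log2 fold change of each of the 29 expressed members (point) with its 95% interval from limma (line), in MUT against HET, MUT against WT and HET against WT, with members in order of mean FPKM from top to bottom. The points of MUT against HET lie mostly right of 0 (24 of 29) and those of HET against WT mostly left of it (25 of 29), and every interval includes 0.

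Among the ligands, the 7 class 3 semaphorins were all expressed, and 6 of 7 had an estimate above 0 in MUT against HET (median 0.18). *Sema3c*, a secreted semaphorin with roles in heart outflow tract and vessel development (chromosome 5, 17574816 to 17730267, mm10), was the highest ligand. In the order of library numbers 1, 2 and 3, the WT kidneys had 43.6, 40.1 and 53.5 FPKM, the HET kidneys 35.3, 33.9 and 50.6 FPKM, and the MUT kidneys 47.3, 56.6 and 42.2 FPKM, and the values of other members follow this order. HET-3 lay above 2 of the 3 MUT libraries, so the groups overlapped. Its log2 fold change of MUT against HET was 0.29 (s.e. 0.17, 95% interval -0.09 to 0.67), and it was 0.19 without HET-2, 0.18 without MUT-2 and 0.47 without HET-3. *Sema3c*, *Sema3d* and *Sema3a* were each highest within WT in WT-3 and highest within HET in HET-3, as were *Sema3e* and *Nrp1*. *Sema3d* was at 12.4 to 16.5 FPKM in WT, 8.98 to 16.9 in HET and 12.5 to 14.1 in MUT (log2 fold change 0.25, s.e. 0.20), and was 0.52 without HET-3, 0.12 without HET-1 and 0.10 without HET-2. *Sema3a*, which repels axons and vessels, was at 11.9 to 15.6, 10.01 to 14.6 and 11.5 to 12.7 FPKM (0.07, s.e. 0.15), with estimates from -0.02 without HET-2 to 0.24 without HET-3. *Sema3c*, *Sema3d*, *Sema3a* and *Sema3e* lie on chromosome 5, and *Nrp1* lies on chromosome 8. Their GC content was 43.5% (*Sema3c*), 40.3% (*Sema3d*) and 45.9% (*Sema3a*), against a median of 56.1% over the expressed members. *Sema5a*, also at 45.9%, was not highest in WT-3 or HET-3 within its genotype. The part of position and GC content in this pattern was not tested.

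*Sema3f*, a ligand that binds mainly neuropilin 2, had a mean of 27.4 FPKM and lay at 21.4 to 35.2 FPKM in WT, 22.9 to 28.0 in HET and 25.8 to 34.8 in MUT, with overlapping groups (log2 fold change 0.18, s.e. 0.18, but 0.05 without MUT-1 and 0.11 without HET-3). *Sema3g*, a ligand known from arterial endothelium, varied most among the expressed members between libraries, 2.35-fold from 5.51 FPKM in MUT-3 to 13.0 FPKM in WT-1. Its estimate in MUT against HET was 0.30 with an interval of -0.28 to 0.88, the widest of the members, and it was 0.11 without MUT-2 and 0.57 without MUT-3. *Sema3b* was at 6.98 to 9.29 FPKM over all 9 libraries (-0.01, s.e. 0.12), with estimates from -0.12 without HET-3 to 0.07 without HET-2. *Sema3e*, which binds plexin D1 without a neuropilin, reached at most 1.74 FPKM, in MUT-2 (0.16, s.e. 0.15), and the estimate was 0.04 without MUT-2 and 0.30 without MUT-3.

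Of the 6 class 4 semaphorins, transmembrane ligands of B plexins among other receptors, 5 were expressed, and the median log2 fold change was 0.06. *Sema4c*, a ligand of plexin B2 (chromosome 1, 36548639 to 36558381), led with 24.9, 21.2 and 19.6 FPKM in WT, 20.7, 21.4 and 20.7 FPKM in HET, and 24.1, 19.5 and 21.9 FPKM in MUT. The HET libraries fell inside the MUT range, and the log2 fold change was 0.05 (s.e. 0.11, interval -0.20 to 0.31), which turned to -0.017 without MUT-1. *Sema4d*, the ligand of plexin B1, was at 8.77 to 11.1 FPKM in HET and 10.3 to 15.0 FPKM in MUT (0.29, s.e. 0.20, but 0.17 without MUT-1). *Sema4b* was the only class 4 member with an estimate below 0, at -0.19 (s.e. 0.15, interval -0.53 to 0.15), and this was the lowest estimate of the 29 members. Its FPKM was 6.15, 7.73 and 5.80 in WT, 7.99, 8.86 and 6.51 in HET, and 7.01, 5.37 and 7.75 in MUT. MUT-1 and MUT-3 lay above HET-3, so the groups overlapped, and the estimate was -0.06 without MUT-2 and -0.30 without HET-3. *Sema4g* (mean 9.70 FPKM) had an estimate of 0.06, which turned to -0.05 without MUT-1 and was 0.16 without MUT-2. *Sema4a* (mean 5.07 FPKM) had 0.09, or -0.01 without HET-3 and 0.17 without HET-2.

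Class 5 and class 6 semaphorins are transmembrane proteins, and class 6 members signal mainly to A plexins. *Sema5a* (chromosome 15, 32244813 to 32696341) had the largest estimate of all members. Its FPKM was 22.9, 14.1 and 13.9 in WT, 14.4, 14.8 and 14.7 in HET, and 24.1, 24.8 and 13.3 in MUT. WT-1, MUT-1 and MUT-2 lay above 22 FPKM and the other 6 libraries between 13.3 and 14.8 FPKM, so MUT-3 lay below every HET library. Its log2 fold change was 0.42 (s.e. 0.23, interval -0.09 to 0.94, adjusted p = 0.847 by limma), with 0.28 without MUT-2 and 0.70 without MUT-3. *Sema5b* was at 3.00 to 3.69 FPKM in HET and 3.37 to 4.48 FPKM in MUT (0.16, s.e. 0.13, but 0.08 without MUT-1).

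All 4 class 6 semaphorins were expressed, between 2.03 and 7.97 FPKM. *Sema6a* had 9.10, 8.30 and 6.27 FPKM in WT, 7.01, 7.60 and 7.76 FPKM in HET, and 9.57, 7.38 and 8.74 FPKM in MUT. MUT-2 lay inside the HET range, and the estimate was 0.17 (s.e. 0.14, interval -0.13 to 0.48), or 0.10 without MUT-1 and 0.26 without MUT-2. *Sema6b* (chromosome 17, 56123085 to 56140343) was at 2.29, 1.76 and 1.76 FPKM in WT, 1.91, 1.91 and 1.94 FPKM in HET, and 2.24, 2.26 and 2.16 FPKM in MUT. The HET and MUT groups of *Sema6b* were each tight and did not overlap, but WT spanned both. Its log2 fold change was 0.14 (s.e. 0.10, interval -0.09 to 0.37, adjusted p = 0.847), or -0.0030 with the correction for GC content and transcript length. *Sema6c* had an estimate of 0.23 (s.e. 0.13), or 0.15 without MUT-1, and *Sema6d* of -0.05 (s.e. 0.14), or -0.17 without MUT-1 and 0.01 without MUT-2 or MUT-3.

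*Sema7a*, the GPI-anchored semaphorin that binds plexin C1 and integrins, was at 3.87, 3.19 and 2.43 FPKM in WT, 2.85, 3.30 and 2.54 FPKM in HET, and 4.12, 3.19 and 2.89 FPKM in MUT. The groups overlapped, with a log2 fold change of 0.17 (s.e. 0.15, interval -0.17 to 0.51), or 0.05 without MUT-1 and 0.10 without HET-3. Its receptor gene *Plxnc1* stayed between 2.30 and 2.75 FPKM in all 9 libraries, the narrowest relative range of the members at 1.19-fold, and had an estimate of 0.09 (s.e. 0.10).

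Among the receptors, 7 of the 9 plexins were expressed, and 6 of the 7 had an estimate above 0 in MUT against HET. *Plxnd1*, the receptor of *Sema3e* on endothelial cells (chromosome 6, 115954811 to 115995005), had the smallest p of all members. The WT libraries had 69.3, 50.8 and 39.3 FPKM, the HET libraries 44.1, 45.7 and 41.8 FPKM, and the MUT libraries 71.2, 57.5 and 47.4 FPKM. Every MUT library lay above every HET library, while WT ran from below the lowest HET library to nearly the highest MUT library. The mean FPKM was 43.9±1.98 in HET and 58.7±11.9 in MUT (s.d., n=3), a ratio of 1.34. The log2 fold change was 0.39 (s.e. 0.19, interval -0.04 to 0.82, unadjusted p = 0.0692 and adjusted p = 0.847 by limma). It was 0.25 without MUT-1 and 0.20 with the correction for GC content and transcript length. The summed FPKM of 6 endothelial markers was 217 to 229 in WT, 205 to 216 in HET and 212 to 222 in MUT. Single markers did not move together. *Cdh5* was at 45.6, 38.5 and 33.5 FPKM in WT, 33.0, 34.4 and 36.3 in HET, and 48.7, 40.5 and 36.1 in MUT. Like *Plxnd1*, *Cdh5*, *Tie1* and *Esam* fell with library number in WT and MUT. *Emcn* was instead lowest within its genotype in WT-1 (56.0 FPKM) and MUT-1 (55.8 FPKM), and *Pecam1* and *Tek* followed neither order. The part of endothelial genes in the *Plxnd1* levels was not tested.

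*Plxnb1*, the receptor of *Sema4d* (chromosome 9, 109095436 to 109119915), was at 24.3, 15.7 and 13.0 FPKM in WT, 14.3, 14.4 and 13.9 FPKM in HET, and 24.8, 18.1 and 15.3 FPKM in MUT. As with *Plxnd1*, MUT lay above HET without overlap and WT covered nearly the whole span. The log2 fold change was 0.40 (s.e. 0.21, interval -0.07 to 0.87, adjusted p = 0.847), 0.22 without MUT-1, and 0.21 with the correction for GC content and transcript length. *Plxnb2* was at 76.99, 65.7 and 45.4 FPKM in WT, 63.2, 65.2 and 54.0 FPKM in HET, and 77.4, 63.9 and 62.0 FPKM in MUT. Here MUT-2 and MUT-3 lay inside the HET range, and the log2 fold change was 0.15 (s.e. 0.18, interval -0.24 to 0.54), or 0.05 without MUT-1 and 0.07 without HET-3.

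*Plxna1*, a receptor for class 3 and class 6 semaphorins (chromosome 6, 89316314 to 89362613), was the highest A plexin. Its FPKM was 25.0, 19.6 and 14.1 in WT, 18.2, 16.8 and 17.8 in HET, and 26.0, 21.4 and 19.3 in MUT. MUT lay above HET without overlap, and WT again had libraries both near the highest MUT library and below every HET library. For *Plxna1* the log2 fold change was 0.31 (s.e. 0.18, interval -0.08 to 0.70, adjusted p = 0.847), 0.20 without MUT-1, and 0.15 with the correction for GC content and transcript length. *Plxna2* was at 4.997, 3.49 and 3.38 FPKM in WT, 3.51, 3.82 and 4.14 FPKM in HET, and 5.74, 5.35 and 3.47 FPKM in MUT. MUT-3 lay below every HET library, and the estimate was 0.26 (s.e. 0.17), or 0.14 without MUT-1, 0.44 without MUT-3 and 0.11 with the correction for GC content and transcript length. *Plxna3* was at 6.13 to 9.16 FPKM in MUT and 6.93 to 7.69 in HET, with an estimate of -0.05 (s.e. 0.15), or -0.22 without MUT-1 and 0.04 without MUT-2.

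The 2 neuropilins differed in level, with a mean of 40.5 FPKM for *Nrp1* and 7.05 FPKM for *Nrp2*. *Nrp1* (chromosome 8, 128359073 to 128505475), whose locus in the table also carries the name of the microRNA gene *Mir1903*, was at 39.5, 41.4 and 45.7 FPKM in WT, 38.2, 35.9 and 45.8 FPKM in HET, and 41.3, 35.8 and 40.6 FPKM in MUT. Its groups overlapped throughout, and the log2 fold change of MUT against HET was -0.02 (s.e. 0.12, interval -0.28 to 0.24). The sign of *Nrp1* was not stable, since the estimate was 0.08 without HET-3 and 0.04 without MUT-2. *Nrp2* (chromosome 1, 62703317 to 62818692) was at 9.26, 5.94 and 5.44 FPKM in WT, 5.37, 6.15 and 6.38 FPKM in HET, and 9.46, 9.59 and 5.81 FPKM in MUT. The levels of *Nrp2* fell into WT-1, MUT-1 and MUT-2 above 9 FPKM and the other 6 libraries at 5.37 to 6.38 FPKM, with the same 3 libraries high as for *Sema5a*. *Nrp2* had a log2 fold change of 0.39 (s.e. 0.20, interval -0.06 to 0.84, adjusted p = 0.847 by limma). The estimate was 0.28 without MUT-2, 0.29 without MUT-1 and 0.60 without MUT-3. With the correction for GC content and transcript length it was 0.29.

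*Plxdc2*, a transmembrane protein with a plexin-like domain, was at 8.50, 7.44 and 7.96 FPKM in WT, 6.81, 6.85 and 8.75 FPKM in HET, and 9.83, 8.19 and 7.93 FPKM in MUT. HET-3 lay above MUT-2 and MUT-3, and the log2 fold change was 0.19 (s.e. 0.12, interval -0.08 to 0.46). Without MUT-1 it was 0.10, and without HET-3 0.30.

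For most members the spread between libraries of WT or MUT was larger than these estimates. The range of the 3 WT libraries on the log2 scale exceeded the difference between MUT and HET for 28 of the 29 members, *Plxdc2* being the exception, and the range of the 3 MUT libraries exceeded it for 26, all but *Sema3d*, *Sema4a* and *Sema6b*. The HET libraries lay closer together, and their range exceeded the difference for 20 members but not for *Plxnd1*, *Plxnb1*, *Plxna1*, *Sema6b*, *Sema5a*, *Nrp2*, *Plxna2*, *Sema6a* and *Sema4c*. Leaving out 1 library turned the sign of 8 members in MUT against HET, and turned the sign or moved the estimate by over 1.5 times for 27 of 29. MUT-1 was the highest of the 9 libraries for 13 members and WT-1 for 6, while WT-3 was the lowest for 11. In WT-1, 25 members lay above their own mean over the 9 libraries, and in MUT-1, 28 did. The median deviation of the members from their means was 0.21 (log2) in WT-1 and 0.25 in MUT-1, between -0.10 and -0.08 in the HET libraries, 0.05 in MUT-2, -0.03 in MUT-3, -0.02 in WT-2 and -0.18 in WT-3. The summed FPKM of the 29 members ran from 392 in WT-3 to 526 in MUT-1.

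Without HET-2, the library with liver RNA, the estimates in MUT against HET moved by over 1.5 times or turned sign for 10 members. They were 0.19 for *Sema3c*, 0.10 for *Sema3d*, -0.02 for *Sema3a* and 0.07 for *Sema3b*. Among the class 4 and class 6 semaphorins they were -0.10 for *Sema4b*, 0.12 for *Sema4g*, 0.17 for *Sema4a* and -0.03 for *Sema6d*. The remaining ones were *Plxna3* at -0.03 and *Nrp1* at -0.09. Of these, *Sema3c*, *Sema4b* and *Nrp1* are members with values given in every library. The other members given in this way moved less. Among plexins the estimates were 0.42 for *Plxnd1*, 0.41 for *Plxnb1*, 0.28 for *Plxna1*, 0.20 for *Plxnb2* and 0.26 for *Plxna2*. Among semaphorins they were 0.43 for *Sema5a*, 0.18 for *Sema6a*, 0.14 for *Sema6b*, 0.24 for *Sema7a* and 0.07 for *Sema4c*. *Plxdc2* was at 0.14 and *Nrp2* at 0.41. The remaining members also moved less. They were at 0.18 for *Sema3f*, 0.45 for *Sema3g*, 0.14 for *Sema3e*, 0.32 for *Sema4d*, 0.22 for *Sema5b*, 0.18 for *Sema6c* and 0.08 for *Plxnc1*.

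WT-1 and MUT-1, where the members' median was highest, had the steepest rise of level with length over all expressed loci. It was 0.12 and 0.14 log2 per doubling of length, against -0.10 to 0.04 in the other 7 libraries. Among those 7 the members' median did not follow the slope. HET-3 had a slope of 0.04 with a median of -0.08, and WT-2 a slope of -0.10 with a median of -0.02. The expressed members had a median transcript length of 5930 bases, against 3134 bases over all expressed loci, and a median GC content of 56.1%, against 51.1%. WT-3 had the steepest fall of level with GC content, -0.21 log2 per 10 percentage points, followed by HET-3 with -0.12. The 5 podocyte markers, all expressed, summed to 150, 100.3 and 99.2 FPKM in WT, 105, 110.2 and 84.3 FPKM in HET, and 132, 128 and 93.6 FPKM in MUT. They were thus highest in WT-1, MUT-1 and MUT-2, the libraries that were also high for *Sema5a* and *Nrp2*. The part of transcript length, GC content and podocyte markers in the members' levels was not tested beyond the corrected values given above.

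**Figure D3:**
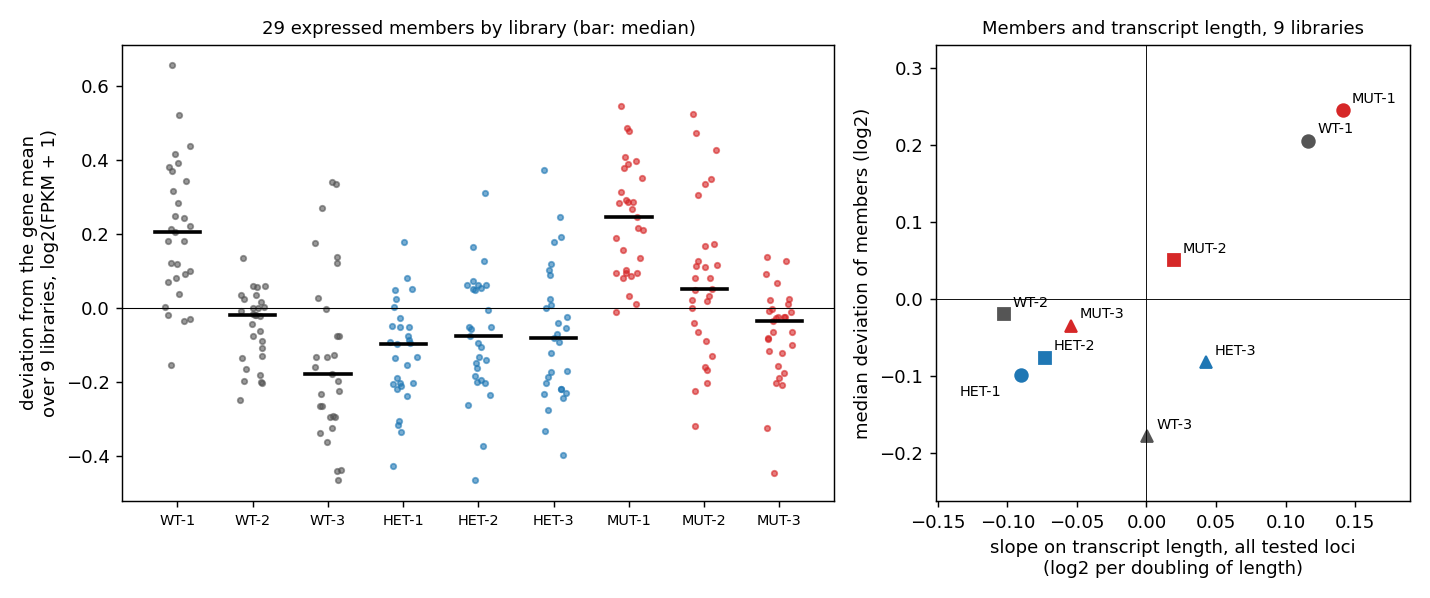
Left, deviation of each of the 29 expressed members from its mean over 9 libraries on log2(FPKM + 1) (points), with the median of each library (bar); right, that median against the slope of level on transcript length over all expressed loci with a length, for the 9 libraries. WT-1 and MUT-1 stand at the top right with medians of 0.21 and 0.25 and slopes of 0.12 and 0.14 log2 per doubling.

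The comparison of MUT with WT sets loss of *Ntn1* together with the disrupted *Foxd1* allele against kidneys without Cre, and uses the same MUT libraries as above. None of the 29 members was called by limma, and 0 of 12915 loci were (0%). At an unadjusted p under 0.05, 0 members passed, against 178 loci (1.38%), and 0 members had libraries that did not overlap (background 3.64%). The estimate was above 0 for 21 members, where 48.2% of all loci were above 0, and below 0 for 8, with a median of 0.09, against -0.00479 over all loci. *Plxna2*, a receptor for class 3 and class 6 semaphorins, had the smallest p, with a log2 fold change of 0.23 (s.e. 0.17, interval -0.15 to 0.61, unadjusted p = 0.202 by limma), and it was 0.12 without MUT-1, 0.38 without WT-1 and 0.42 without MUT-3. *Nrp2* had 0.24 (s.e. 0.20), from 0.11 without WT-3 to 0.45 without MUT-3. *Sema5a* had 0.26 (s.e. 0.23), from 0.11 without MUT-2 to 0.54 without MUT-3, and *Nrp1* -0.10 (s.e. 0.12), from -0.15 without WT-1 to -0.04 without MUT-2. *Plxnd1*, *Plxnb1* and *Plxna1* had 0.16, 0.15 and 0.20, and each of these turned below 0 without WT-3, to -0.04, -0.04 and -0.0031, as did *Plxnb1* without MUT-1 (-0.04). The median of the members depended on the library left out, at 0.20 without WT-1, -0.03 without WT-3 (13 members above 0 and 16 below), 0.02 without MUT-1 and 0.16 without MUT-3. Leaving out 1 library turned the sign of 18 members.

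The comparison of HET with WT shares its libraries with both comparisons above. Again 0 members and 0 loci (0%) were called by limma, 0 members passed an unadjusted p under 0.05, against 148 loci (1.15%), and 0 members had libraries that did not overlap (background 3.81%). The estimate was below 0 for 25 of the 29 members, where 49.7% of all loci were, with a median of -0.09, against 0.000749 over all loci. *Sema4b*, 1 of the 4 members above 0, had the smallest p, with a log2 fold change of 0.22 (s.e. 0.15, interval -0.12 to 0.56, unadjusted p = 0.189), or 0.13 without HET-2 and 0.33 without HET-3. The lowest estimates were those of *Sema3g* (-0.36, s.e. 0.26), *Sema3d* (-0.27, s.e. 0.20), *Plxnb1* (-0.25, s.e. 0.21) and *Plxnd1* (-0.23, s.e. 0.19). Without WT-1 these were -0.10, -0.32, -0.010 and -0.028, and without HET-2 they were -0.51, -0.13, -0.26 and -0.26. *Sema3d* was -0.55 without HET-3. Leaving out 1 library turned the sign of 16 members. Without WT-1 the median was 0.04, with 17 members above 0. It was -0.13 without WT-3, -0.05 without HET-1, -0.07 without HET-2, and -0.03 with the correction for GC content and transcript length.

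**Figure D4:**
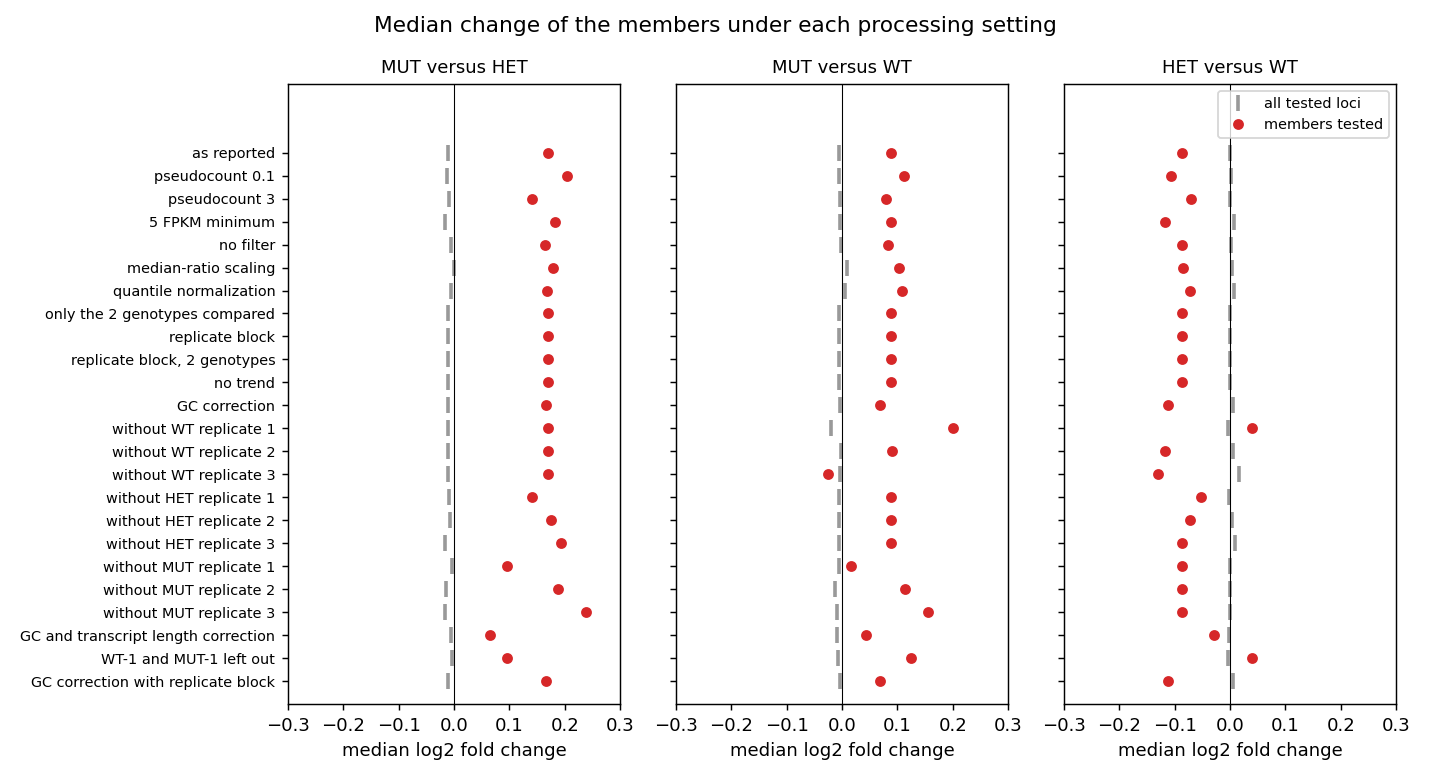
Median log2 fold change of the members tested (red points) and of all loci tested (grey ticks) for each of the 3 comparisons, as reported and under 23 other settings. In MUT against HET the members' median stays between 0.07 and 0.24, while it crosses 0 in MUT against WT without WT-3 (-0.03) and in HET against WT without WT-1 (0.04).

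Other genes of the pathway were followed as a list of 36 co-receptors, processing enzymes and cytoplasmic effectors, of which 33 were expressed. In MUT against HET, 0 of the 33 were called by limma, and 2 had an unadjusted p under 0.05, both higher in MUT (background 1.71%). 21 were above 0 (background 47.0%) and 12 below, with a median of 0.09. The libraries of 5 (*Furin*, *Limk1*, *Erbb2*, *Flt1* and *Sh3bp1*) lay above HET without overlap (background 4.77%). *Furin*, a protease that processes class 3 semaphorins, was at 31.3, 24.2 and 19.3 FPKM in WT, 22.2, 19.7 and 20.2 FPKM in HET, and 32.3, 31.6 and 24.1 FPKM in MUT. WT again had its highest value in WT-1 and its lowest in WT-3, as for *Plxnd1*, *Plxnb1* and *Plxna1*, and WT overlapped both other groups. The log2 fold change of *Furin* was 0.47 (s.e. 0.17, unadjusted p = 0.0168, adjusted p = 0.847 by limma). *Limk1*, a kinase that phosphorylates cofilin downstream of plexins, had 0.29 (s.e. 0.13, unadjusted p = 0.0435, adjusted p = 0.847). The smallest p among those lower in MUT were those of *Cdk5*, a kinase in semaphorin 3A signalling (-0.24, s.e. 0.11, unadjusted p = 0.0556), and of the cofilin gene *Cfl1* (-0.26, s.e. 0.16, unadjusted p = 0.119). Without HET-2 the estimates in MUT against HET were 0.44 for *Furin*, 0.23 for *Limk1*, -0.23 for *Cdk5* and -0.23 for *Cfl1*, with 22 of the 33 above 0 and a median of 0.10. In MUT against WT 21 of the 33 were above 0 (background 48.2%), with a median of 0.06. In HET against WT 14 were above 0 and 19 below (background 49.7% below), with a median of -0.02. At an unadjusted p under 0.05, 0 of the 33 passed in both, against 1.38% and 1.15% of all loci.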

How the data were processed

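RNA of whole E15.5 kidneys was measured by stranded mRNA-seq in 9 libraries, 3 each of WT, HET and MUT, grouped by the genotype in the labels. The deposited FPKM were computed by the authors with Cuffdiff after alignment with STAR and assembly with Cufflinks, on mm10 by the submitters' processing notes. Versions, annotation and the use of strand are not given in the sources used here. The 3 columns of the authors' genotype means were not used.

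The 12915 loci with a mean of at least 1 FPKM over all 9 libraries were put on the log2(FPKM + 1) scale and fitted together in R 4.3.3 by limma 3.58.1 (lmFit, contrasts.fit and eBayes with a trend, 6 residual degrees of freedom, no block). All tests were two-sided, p-values were adjusted by Benjamini-Hochberg over all these loci, and the threshold was 0.05. The steps were tested on simulated data. Start positions of the table were raised by 1 to count from 1. GC content and transcript length came from GENCODE mouse release 21, for 96.4% of the tested loci, and promoters from RefSeq on GRCm38.p6. Counts and medians were computed, and plots drawn, in Python 3.11.15 using numpy 2.4.6, pandas 2.3.3, scipy 1.17.1 and matplotlib 3.10.9.

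The members, the partner list, the marker lists and the tests were chosen with earlier results of these data known. Values in every library are given for both neuropilins, the highest member of each class, members whose MUT and HET libraries do not overlap, and the member with the smallest p in each comparison. Of the partners, those with the 2 smallest p in each direction in MUT against HET are named. The remaining members are given by ranges or estimates.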

Additional observations from a re-analysis of the deposited data

How the results depend on the processing

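With 3 libraries per genotype and unknown depth, the intervals of the members are wide and 0 calls do not show that levels were equal. The 23 alternatives (20 planned and 3 added after seeing the data) left 0 members called in each comparison. Few of all loci were called under them either. The most were 3 higher and 1 lower of 12915 loci, in MUT against WT without MUT-2. Leaving out each library in turn gave member medians (log2) of 0.10 to 0.24 in MUT against HET, -0.03 to 0.20 in MUT against WT and -0.13 to 0.04 in HET against WT. With 1 MUT or HET library fewer the groups overlap less often over all loci too. Of the 29 members, those above HET without overlap in MUT were 4 without MUT-1 (9.58% of all loci), 7 without MUT-2 (7.56%) and 12 without MUT-3 (15%). They were 5 without HET-1 (6.56%), 6 without HET-2 (7.37%) and 10 without HET-3 (17.1%). Below HET lay 2 without MUT-1 (8.61%) and 2 without HET-3 (17.2%). With any other MUT or HET library left out, 0 lay below (6.44% to 20.1% of all loci).

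Neither the labels nor the methods say whether a replicate number marks a cross. The deviations of same-numbered libraries of different genotypes correlated with r between -0.27 and 0.56 over 9 pairs (mean -0.01). For differently numbered libraries r was between -0.55 and 0.48 over 18 pairs (mean 0.0053). Deviations from a mean of 3 libraries depend on one another, so these values cannot tell whether the numbers pair the libraries. A replicate block left 0 members called and the medians at 0.17, 0.09 and -0.09. With it, 3 members had an unadjusted p under 0.05 in MUT against HET (4.79% of all loci), where 0 passed in the fit reported above (3.86%). Fitting only these 2 genotypes, without a block, also gave 3 members (5.41% of all loci). Leaving out single libraries gave from 0 members (1.39% of all loci without HET-1) to 6 members (11.3% without MUT-3).

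Of the 25 changes of named members followed, 8 turned sign under some setting. In MUT against HET, *Nrp1* was 0.0034 after quantile normalization and -0.094 to 0.077 with single libraries left out, *Sema4c* was -0.017 with WT-1 and MUT-1 both left out and -0.017 to 0.13 with single libraries left out, and *Sema6b* was -0.0030 with the correction for GC content and transcript length. In MUT against WT, leaving out single libraries gave -0.0031 to 0.39 for *Plxna1*, -0.040 to 0.39 for *Plxnb1* and -0.036 to 0.37 for *Plxnd1*. In HET against WT, *Nrp2* was 0.056 and *Plxna1* 0.079 with WT-1 and MUT-1 both left out, and -0.28 to 0.056 and -0.31 to 0.079 with single libraries left out. The cause was not tested.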

Other observations

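The liver signal of HET-2 came with 244 FPKM of *Alb*, against 0.213 to 4.77 FPKM in the other 8 libraries, and *Tubb3*, a neuronal tubulin, was at 4.998 FPKM in HET-2 against 0.555 to 1.37 FPKM elsewhere. Of the expressed members, 3 were highest of all 9 libraries in HET-2 and 4 were lowest there.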
